A study of Oryctolagus cuniculus with 12 samples.

Results

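The fibrillar collagen chains of rabbit ear skin and scar were described from bulk RNA-seq of 12 samples in 4 groups of 3. Members were the rows of the expression table whose gene symbol was that of 1 of 9 listed chains, which found 7 of them (COL1A1, COL1A2, COL3A1, COL5A2, COL5A3, COL11A1 and COL24A1) among 29587 genes. COL5A1 and COL27A1 carried no symbol in the table and were found by the protein name in the gene description. Their values are given beside the members and are not counted among them. The groups were normal skin (NS) of untouched ears, untreated hypertrophic scar (HS), scar given drug-loaded microneedle patches (drug-loaded MNs) and scar given 5-Fu injection. The rabbits were wild-type females of 10-12 weeks when bought, with 3 different rabbits in each group. The samples were full thickness ear, so cartilage and epidermis were included in the tissue. Scars arose from round wounds in which epidermis, dermis and perichondrium had been removed. Treated lesions received 1 patch, or 0.1 mL of fluid holding 120 μg of 5-Fu (5-fluorouracil, an antimetabolite that blocks DNA synthesis), on days 22, 29 and 36 after wounding, and the tissue was taken on day 43. The drug-loaded patch carried a 5-Fu derivative, and no group with drug-free patches is in these samples, so patch and drug cannot be told apart.

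Fibrillar collagens are triple helices of 3 chains that pack into the banded fibrils of connective tissue. Type I, made of COL1A1 and COL1A2 chains, and type III, made of COL3A1 chains alone, form the bulk of dermal fibrils. Type V (COL5A1, COL5A2 and, in some molecules, COL5A3) is a minor component that starts fibril formation and limits fibril diameter. Type XI (COL11A1, COL11A2 and a product of COL2A1) plays that part in cartilage, whose main fibrils are type II (COL2A1). COL24A1 and COL27A1 code for 2 further chains of this family, best known from bone and cartilage. Scar tissue is known for a high content of type I and type III collagen.

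Samples held between 10521472 and 14043667 reads on genes, so counting error is small for the chains other than COL24A1. The values are FPKM, fragments scaled to gene length and library size, which allows chains to be compared per length. Keratinocyte markers, 6 of 8 found, had summed levels of 2136 to 3719 FPKM in NS, 1307 to 1884 in HS, 3636 to 8527 under drug-loaded MNs and 2747 to 5348 under 5-Fu injection. Fibroblast markers, 7 of 8 found, summed to 959 to 1367, 5376 to 6346, 3082 to 4716 and 1497 to 3877 FPKM in the same order. Only DCN and LUM, which are themselves collagen-binding proteoglycans, were called higher in HS than in NS among the 7 fibroblast markers. The HS mean was 22.2 times the NS mean for LUM and 3.07 times for DCN. It was 1.98 to 2.28 times the NS mean for PDGFRB, DPT, THY1, FBLN1 and MFAP5, so the sum mostly followed LUM. The part of these cell types in the results was not tested, and in bulk tissue fewer cells of a type and less RNA per cell cannot be told apart.

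The 9 chains took 1.73%, 1.26% and 1.21% of all reads on genes in the 3 NS samples. In HS the share was 15.8%, 20.2% and 17.9%. It was 12.3%, 10.7% and 8.39% in the drug-loaded MNs group and 2.09%, 11.6% and 3.05% in the 5-Fu injection group. Every drug-loaded MNs sample thus lay between the NS and HS samples, while the 5-Fu injection group was split, with replicate 2 among the drug-loaded MNs values and replicates 1 and 3 closer to NS. This replicate stood far above the other 2 in the 6 chains of types I, III and V and not in COL11A1, COL24A1 and COL27A1. The comparison of 5-Fu injection with HS is therefore given with and without it for the chains tested. It was picked from the values of these same chains, so leaving it out lowers their 5-Fu injection means and spread. All results without it, ratios included, are a description and cannot serve as a test.

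The make-up of this pool was dominated by 3 chains in every sample. COL1A1, COL1A2 and COL3A1 together made up 85.2% to 88.1% of the summed FPKM of the 9 chains in NS and 93.1% to 96.3% in HS. The remaining 6 chains held 11.9% to 14.8% in NS and 3.72% to 6.91% in HS. Both treated groups overlapped with HS in this share, at 4.58% to 7.47% with drug-loaded MNs and 4.43% to 11.1% with 5-Fu injection. COL11A1 alone took 3.53% to 7.48% of the pool in NS and 0.632% to 1.42% in HS.

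**Figure D1:**
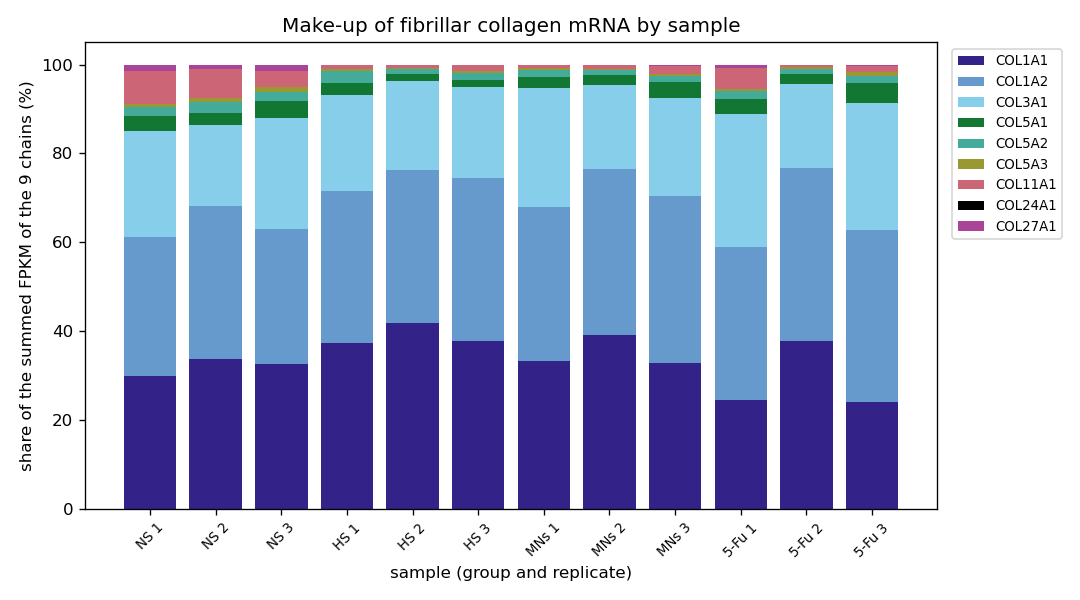
Share of the summed FPKM of 9 fibrillar collagen chains (%, vertical axis) held by each chain, in each of the 12 samples (horizontal axis). COL1A1, COL1A2 and COL3A1 fill 85.2% to 88.1% of the NS columns and 93.1% to 96.3% of the HS columns.

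The order of the chains by mean FPKM differed little between groups at its top. COL1A1 and COL1A2 came first and second in HS and stood in reverse order in the other groups, with overlapping sample values in each group, and COL3A1 was the third in every group. COL11A1 was the fourth in NS (147 ± 74.0 FPKM, SD, n = 3), above COL5A1 (79.9 ± 21.4) with overlapping samples. In HS it was the sixth (384 ± 169), below COL5A1 (772 ± 167) and COL5A2 (697 ± 147), with no overlap with COL5A2. COL24A1 was last in all 4 groups.

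**Figure D2:**
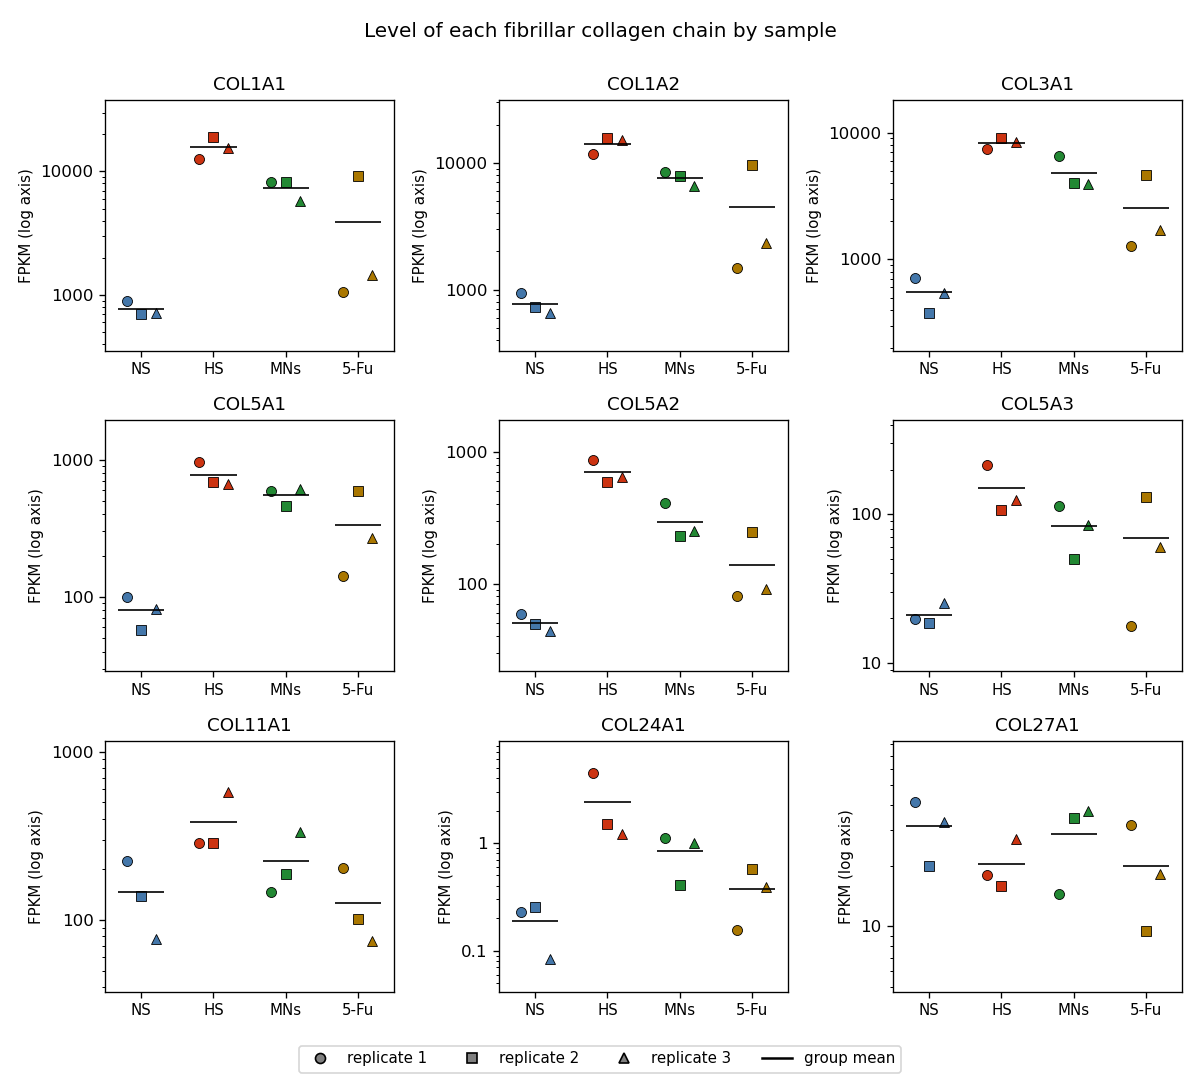
FPKM of each chain (log axis) in NS, HS, drug-loaded MNs (MNs) and 5-Fu injection (5-Fu), with 1 point per sample and a bar at the group mean. COL1A1 lies between 705 and 896 in NS and between 12719 and 18970 in HS, and 5-Fu injection replicate 2 lies far above the other samples of its group in the chains of types I, III and V.

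The type I chains were the most abundant of the 9 chains and had the largest log2 fold changes in scar among those tested. COL1A1 (ENSOCUG00000012881, chromosome 19, 37474785 to 37489593) was at 896, 705 and 714 FPKM in NS and at 12719, 18970 and 15445 in HS. It was at 8140, 8253 and 5776 FPKM with drug-loaded MNs and at 1053, 9220 and 1438 with 5-Fu injection. No sample of HS was as low as any sample of another group, and 2 of the 3 5-Fu injection samples were just above NS. Relative to NS, COL1A1 in HS was higher by a log2 fold change of 4.34 (SE 0.64, adjusted p = 0.00334 in limma), which is 20.2-fold with a 95% interval of 7.66 to 53.2. The drug-loaded MNs mean was 47.0% of the HS mean, and the log2 fold change of -1.09 did not pass (95% interval -2.49 to 0.31, limma adjusted p = 0.651). After 5-Fu injection the log2 fold change against HS was -2.69 (SE 0.64, limma adjusted p = 0.0421). Without 5-Fu injection replicate 2 it was -3.65 (limma adjusted p = 0.000867). The call was lost when any 1 of the other 11 samples was left out, without a filter, with the replicate block and when only HS and 5-Fu injection were fitted.

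COL1A2 (ENSOCUG00000012264, chromosome 10, 34497959 to 34533850), the second chain of the type I molecule, followed COL1A1 closely. It was at 940, 726 and 659 FPKM in NS and at 11610, 15603 and 14986 in HS. The drug-loaded MNs samples were at 8502, 7824 and 6605 FPKM and the 5-Fu injection samples at 1486, 9541 and 2330. HS again lay above all other samples, and every treated sample lay above every NS sample. COL1A2 was higher in HS than in NS by 4.18 on the log2 scale (SE 0.54, limma adjusted p = 0.00188). Against HS, the log2 fold change was -0.88 after drug-loaded MNs (limma adjusted p = 0.666). It was -2.12 after 5-Fu injection, just short of the threshold (limma adjusted p = 0.0510), and -2.91 without replicate 2 (limma adjusted p = 0.00116).

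COL3A1 (ENSOCUG00000014988, chromosome 7, 129298064 to 129340978), the chain of type III collagen, rose nearly as much as the type I chains. NS samples were at 718, 380 and 547 FPKM and HS samples at 7363, 9037 and 8388. Drug-loaded MNs samples were at 6557, 3987 and 3900 FPKM and 5-Fu injection samples at 1283, 4609 and 1717. As for type I, the HS samples were the highest and the NS samples the lowest, and no treated sample reached either. The log2 fold change HS against NS was 3.95 (SE 0.44, limma adjusted p = 0.00109), which is 15.5-fold. It was -0.82 for drug-loaded MNs against HS (95% interval -1.78 to 0.14, limma adjusted p = 0.625) and -1.93 for 5-Fu injection against HS (SE 0.44, limma adjusted p = 0.0387). The latter was -2.47 without 5-Fu injection replicate 2 (limma adjusted p = 0.00404), and its call was lost without 5-Fu injection replicate 1 or 3, any 1 HS replicate, NS replicate 1 or drug-loaded MNs replicate 2, and under the same other 3 settings as for COL1A1.

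The type V chains rose in scar as well. COL5A2 (ENSOCUG00000015020, chromosome 7, 129359674 to 129503927) was at 58.9, 49.4 and 43.4 FPKM in NS and at 865, 587 and 640 in HS. It was at 405, 228 and 249 FPKM with drug-loaded MNs and at 80.9, 246 and 90.7 with 5-Fu injection. All HS samples lay above all treated samples, and those lay above all NS samples. COL5A2 was higher in HS than in NS by 3.75 on the log2 scale (SE 0.38, limma adjusted p = 0.000842). It had the most negative log2 fold change of the tested chains after drug-loaded MNs, -1.27, with a 95% interval of -2.10 to -0.44 that leaves out 0 but an adjusted p of 0.335 in limma. After 5-Fu injection it was lower than in HS by a log2 fold change of -2.49 (SE 0.38, limma adjusted p = 0.0205), and of -2.99 without replicate 2 (limma adjusted p = 0.000867). This call was lost without 5-Fu injection replicate 1 or 3 or any 1 HS replicate, and when only HS and 5-Fu injection were fitted. COL5A2 and COL3A1 are neighbours that converge on opposite strands in the table's coordinates, with 18695 bases and no listed gene between them.

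COL5A3 (ENSOCUG00000014857, scaffold GL018833, 270747 to 310069), the least common chain of type V, was at 19.6, 18.4 and 25.4 FPKM in NS and at 214, 108 and 126 in HS. It was at 114, 49.8 and 85.3 FPKM with drug-loaded MNs and at 17.6, 132 and 59.9 with 5-Fu injection. The treated groups overlapped with HS, and 5-Fu injection replicate 1 lay below every NS sample. COL5A3 was higher in HS than in NS by 2.71 on the log2 scale (SE 0.58, limma adjusted p = 0.0186), and neither treatment passed against HS, with limma adjusted p of 0.704 under drug-loaded MNs and 0.150 under 5-Fu injection. Without 5-Fu injection replicate 2 the log2 fold change of 5-Fu injection against HS was -2.09 and passed (limma adjusted p = 0.0274). The rise in HS did not pass without HS replicate 1 or 3, or without NS replicate 1 or 2.

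COL5A1 was read from a short gene model of 3297 bases on scaffold GL019578 (29112 to 37589), which may not hold the whole gene. It was at 100, 57.8 and 81.6 FPKM in NS and at 964, 687 and 664 in HS. It was at 587, 463 and 606 FPKM after drug-loaded MNs, closer to HS than the other chains of types I, III and V were, and at 143, 593 and 267 after 5-Fu injection. The drug-loaded MNs mean was 71.5% of the HS mean for COL5A1 and 42.1% for COL5A2. COL5A1 was higher in HS than in NS by 3.27 on the log2 scale (SE 0.42, limma adjusted p = 0.00180), and neither treatment passed against HS with all samples. Without 5-Fu injection replicate 2, COL5A1 was called lower after 5-Fu injection than in HS, with a log2 fold change of -1.96 (limma adjusted p = 0.00710).

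COL11A1 (ENSOCUG00000013367, chromosome 13, 61054286 to 61261797) had another pattern. It was at 224, 139 and 76.9 FPKM in NS and at 286, 286 and 580 in HS. It was at 147, 188 and 335 FPKM with drug-loaded MNs and at 203, 102 and 75.3 with 5-Fu injection. Every HS sample lay above every NS and every 5-Fu injection sample, but the gap was narrow and the spread wide. The log2 fold change HS against NS was 1.43 (SE 0.48), which did not pass (limma adjusted p = 0.100). It was -1.63 for 5-Fu injection against HS (limma adjusted p = 0.0714) and -0.78 for drug-loaded MNs against HS (limma adjusted p = 0.663). Without 5-Fu injection replicate 2 the former was -1.54 and did not pass.

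Its cartilage partners had other patterns. COL11A2, the second type XI chain, was at 277, 138 and 209 FPKM in NS and at 12.2, 41.1 and 150 in HS. COL2A1, the type II chain, ranged from 1012 to 2248 FPKM in NS, 247 to 3607 in HS, 541 to 3738 with drug-loaded MNs and 260 to 4429 with 5-Fu injection. Neither COL2A1 nor COL11A2 passed in any of the 6 comparisons. In a description chosen after the values were seen, COL11A1 per COL11A2 was 0.811, 1.00 and 0.369 in NS and 23.5, 6.97 and 3.87 in HS. It was 2.54, 1.29 and 1.45 with drug-loaded MNs and 0.744, 4.17 and 1.02 with 5-Fu injection. The HS samples thus held more COL11A1 per COL11A2 than all NS and drug-loaded MNs samples, and 5-Fu injection replicate 2 was within their range. Per COL2A1, COL11A1 was 1.16, 0.468 and 0.161 in HS and 0.0998, 0.137 and 0.0744 in NS. With drug-loaded MNs it was 0.272, 0.116 and 0.0896, so HS replicate 3 lay below replicate 1 of that group. COL11A2 per COL2A1 was itself lower in HS (0.0415 to 0.0671) than in NS (0.123 to 0.202). Cartilage markers, 8 of 9 found, summed to 1578 to 3382 FPKM in NS, 443 to 4818 in HS, 839 to 4986 with drug-loaded MNs and 397 to 5503 with 5-Fu injection. The groups thus overlapped widely in this sum. It includes COL2A1 and COL11A2 and is not separate from them. COL2A1 alone was 3607 of the 4818 FPKM in HS replicate 3 and 247 of the 443 in HS replicate 1. The part of cartilage in the level of COL11A1 was not tested.

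**Figure D3:**
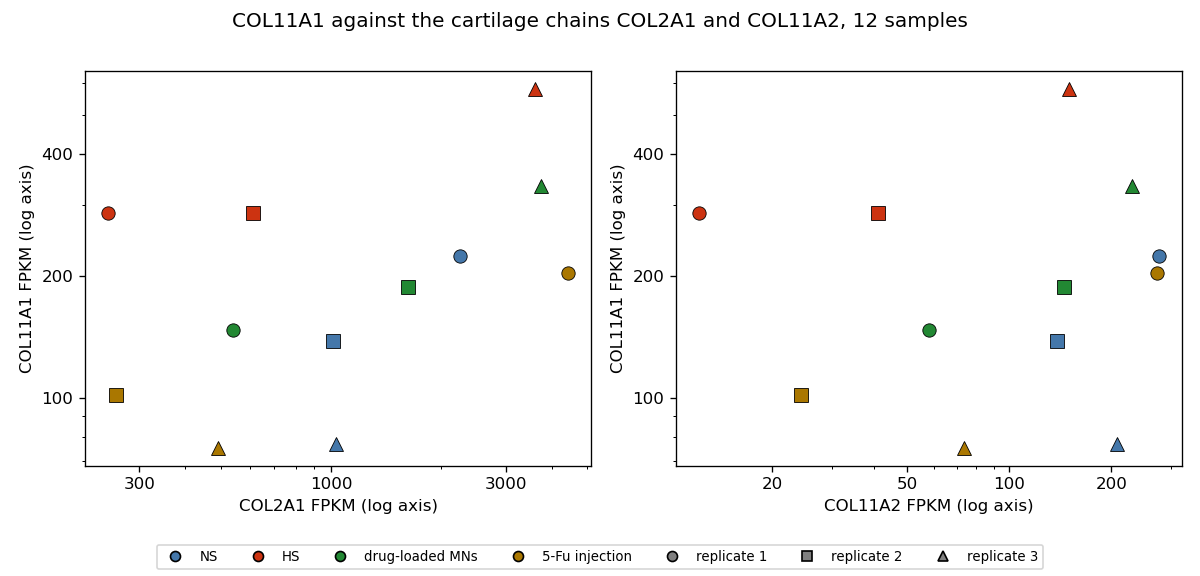
COL11A1 FPKM (vertical log axis) against COL2A1 FPKM (left) and COL11A2 FPKM (right, both log axes), with 1 point per sample, colours for groups and shapes for replicates. HS replicates 1 and 2 combine a COL11A1 of 286 with COL11A2 values of 12.2 and 41.1, whereas the NS samples pair COL11A1 of 76.9 to 224 with COL11A2 of 138 to 277.

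COL24A1 (ENSOCUG00000003917, chromosome 13, 78687278 to 79097751) was close to the limit of detection. It held 15, 17 and 5 reads in NS, 244, 87 and 76 in HS, 68, 25 and 55 after drug-loaded MNs, and 10, 30 and 24 after 5-Fu injection. In FPKM this was 0.23, 0.26 and 0.084 in NS and 4.44, 1.51 and 1.22 in HS. HS was above all other samples, as for the abundant chains, and HS replicate 1 was well above the others. With a mean of 0.948 FPKM the gene fell under the filter of 1 and was left out of the main test. In a fit without the filter it was higher in HS than in NS by 1.39 on the log2(FPKM + 1) scale (SE 0.30, limma adjusted p = 0.0358), a scale that understates changes at such low levels.

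COL27A1 was the only chain with a lower mean in HS than in NS. On the more abundant of 2 overlapping gene models on scaffold GL018699, whose reads cannot be assigned with certainty, it was at 41.5, 19.9 and 32.8 FPKM in NS and at 17.9, 15.8 and 27.2 in HS. It was at 14.6, 34.5 and 37.3 FPKM with drug-loaded MNs and at 31.9, 9.53 and 18.2 with 5-Fu injection. The groups overlapped in all comparisons, and none passed. The HS against NS log2 fold change was -0.58, with a 95% interval of -1.58 to 0.41 (limma adjusted p = 0.481). COL27A1 was lowest in 5-Fu injection replicate 2, drug-loaded MNs replicate 1, HS replicate 2 and HS replicate 1. Their summed cartilage markers, COL2A1 included, were also the lowest, at 397, 839, 919 and 443 FPKM. COL27A1 was highest in NS replicate 1, where the sum was 3382 FPKM, against 5503 in 5-Fu injection replicate 1. The part of cartilage in the level of COL27A1 was not tested.

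**Figure D4:**
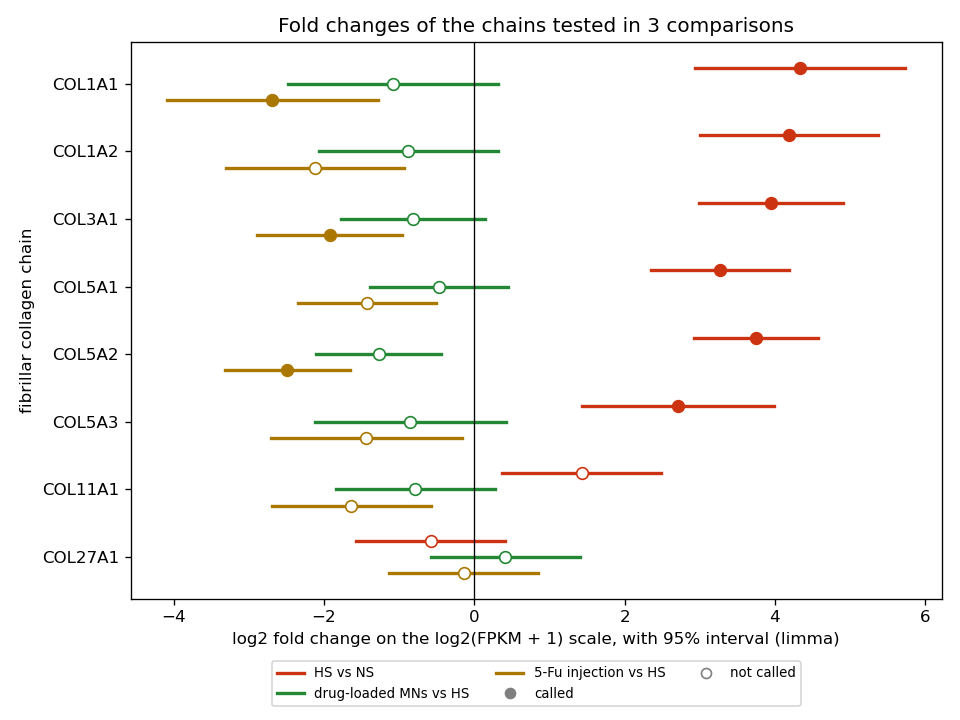
log2 fold change of each tested chain with its 95% interval (horizontal axis) for HS against NS, drug-loaded MNs against HS and 5-Fu injection against HS, filled where called. The rise in HS runs from 2.71 (COL5A3) to 4.34 (COL1A1) in the chains called, and the intervals for drug-loaded MNs include 0 for every chain shown but COL5A2 (-1.27). All intervals rest on a spread pooled over the 4 groups, 5-Fu injection included.

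Among the 6 members tested, a chain was called at an adjusted p below 0.05 with a log2 fold change beyond 1 in either direction. In HS against NS, 5 were called higher, against 3.53% of all 13287 genes tested, and the median log2 fold change of the 6 was 3.85 where that of all genes was -0.01. All 6 had HS samples above every NS sample, against 18.0% of all genes. COL11A1 was the tested member not called.

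In drug-loaded MNs against HS, 0 members were called lower by limma, and so were 0 of all genes (0%), although 1183 genes had an unadjusted p under 0.05. Voom on the reads also called 0 members. The spread in the main fit is pooled over the 4 groups, 5-Fu injection included. For COL1A1 the SE of the log2 fold change HS against NS was 0.64, and 0.26 without 5-Fu injection replicate 2. When only HS and drug-loaded MNs were fitted, 32 of all genes were called higher and 5 lower. Members called were 0 in that fit and 0 without 5-Fu injection replicate 2, which does not show that they were unchanged. All 6 fold changes were below 0, with a median of -0.86, and in 4 of the 6 (COL1A1, COL1A2, COL3A1 and COL5A2) every treated sample lay below every HS sample, against 10.3% of all genes. The treated level stayed above NS in the comparison of drug-loaded MNs with NS, where 4 members (COL1A1, COL1A2, COL3A1 and COL5A2) were called higher, against 0.79% of all genes. The count of 4 called fell to 0 without drug-loaded MNs replicate 1 or 3 or NS replicate 1 or 2. Over all genes the calls fell there from 105 to 14, 4, 6 and 0. The member count fell to 1 without drug-loaded MNs replicate 2 and to 2 without NS replicate 3, where 21 and 84 of all genes were called higher. In 5 of the 6 the samples did not overlap with NS, against 11.5% of all genes.

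In 5-Fu injection against HS, 3 members (COL1A1, COL3A1 and COL5A2) were called lower, against 1.78% of all genes, with a median log2 fold change of -2.02. In 5 of the 6 every treated sample lay below every HS sample, against 16.4% of all genes, COL5A3 being the exception. Without 5-Fu injection replicate 2 the calls were 5, COL11A1 being the tested member not called. In that fit 500 of all 13287 genes were called lower and 303 higher, against 236 and 68 with all samples. Member calls were 0 without 5-Fu injection replicate 1 or 3 or without any 1 HS replicate. Calls over all genes fell too, to 8 and 6 without 5-Fu injection replicates 1 and 3. They fell to 8, 0 and 0 without HS replicates 1, 2 and 3. Member calls were 2 without NS replicate 2 or 3 or drug-loaded MNs replicate 1 or 3, where 228, 224, 234 and 227 of all genes were called lower. They were 1 without NS replicate 1 or drug-loaded MNs replicate 2, where 130 and 137 of all genes were. Against NS, 0 members were called higher after 5-Fu injection by limma or by voom on the reads, against 0.00753% of all genes, with 1981 genes at an unadjusted p under 0.05. In 4 of the 6 the samples lay above NS without overlap, against 9.6% of all genes.

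The treatments were also compared directly. In drug-loaded MNs against 5-Fu injection, 0 members were called higher by limma or by voom on the reads, against 0% of all genes, with 2009 genes at an unadjusted p under 0.05. All 6 fold changes were above 0, with a median of 1.16, and 0 of the 6 were without overlap, against 8.64% of all genes. COL1A1 was higher after drug-loaded MNs by 1.60 on the log2 scale (95% interval 0.20 to 3.00, limma adjusted p = 0.299). Without 5-Fu injection replicate 2, COL1A1 and COL1A2 were called, at 2.57 and 2.03 on the log2 scale (limma adjusted p = 0.0275 and 0.0478). In that fit 10 of all 13287 genes were called higher and 2 lower. The comparisons with HS share the HS samples, and those with NS share the NS samples.

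Ratios between chains within a sample do not depend on how samples are scaled to each other. Of 10 ratios compared over the 4 groups by an exact permutation test, 0 passed after adjustment over the 10, and 3 had an unadjusted exact p under 0.05. The smallest p that a pairwise exact test of 3 against 3 samples can give is 0.1, so no pair of groups could pass.

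The COL1A1 to COL1A2 ratio was 0.953, 0.972 and 1.08 in NS and 1.10, 1.22 and 1.03 in HS. It was 0.957, 1.05 and 0.875 with drug-loaded MNs and 0.709, 0.966 and 0.617 with 5-Fu injection. The 2 chains were thus nearly equal per length in skin and scar, and every 5-Fu injection sample lay below every HS sample. The exact permutation p over the 4 groups was 0.0334 (adjusted 0.111), and without 5-Fu injection replicate 2 the adjusted exact p was 0.0172.

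The COL1A1 to COL3A1 ratio was 1.25, 1.85 and 1.30 in NS and 1.73, 2.10 and 1.84 in HS. It was 1.24, 2.07 and 1.48 with drug-loaded MNs and 0.821, 2.00 and 0.838 with 5-Fu injection. The groups overlapped, and 2 of the 5-Fu injection samples were the only ones with more COL3A1 than COL1A1. The exact permutation p was 0.276 (adjusted 0.307), and the adjusted exact p was 0.0414 without 5-Fu injection replicate 2.

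Within type V, the COL5A1 to COL5A2 ratio set the treated samples apart from HS. It was 1.70, 1.17 and 1.88 in NS and 1.11, 1.17 and 1.04 in HS. It was 1.45, 2.03 and 2.44 with drug-loaded MNs and 1.76, 2.41 and 2.94 with 5-Fu injection, so that both treated groups lay above every HS sample, 5-Fu injection replicate 2 included. The exact permutation p over the 4 groups was 0.0268 (adjusted 0.111), and in both pairwise comparisons with HS the exact p was 0.1.

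COL5A2 was also lower against its neighbour COL3A1 in the treated samples. COL5A2 was 8.20%, 13.0% and 7.92% of COL3A1 in NS and 11.7%, 6.50% and 7.63% in HS. It was 6.18%, 5.71% and 6.37% with drug-loaded MNs and 6.31%, 5.34% and 5.28% with 5-Fu injection. All treated samples lay below all HS and NS samples, by a narrow margin, and the exact permutation p was 0.0581 (adjusted 0.145).

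The minor chains were also set against COL1A1, and no such ratio passed after adjustment. COL5A1 was 11.2%, 8.19% and 11.4% of COL1A1 in NS and 7.58%, 3.62% and 4.30% in HS, with no overlap. It was 7.21%, 5.61% and 10.5% with drug-loaded MNs and 13.5%, 6.44% and 18.6% with 5-Fu injection, with an exact permutation p of 0.0962 (adjusted 0.166) over the 4 groups. COL27A1 was 2.83% to 4.63% of COL1A1 in NS, 0.0834% to 0.176% in HS, 0.179% to 0.646% with drug-loaded MNs and 0.103% to 3.03% with 5-Fu injection. Its exact permutation p was 0.0202 (adjusted 0.111). The ratios of COL5A2 and COL24A1 to COL1A1, COL5A3 to COL5A1 and COL11A1 to COL5A1 had exact permutation p of 0.434, 0.263, 0.139 and 0.0996.

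**Figure D5:**
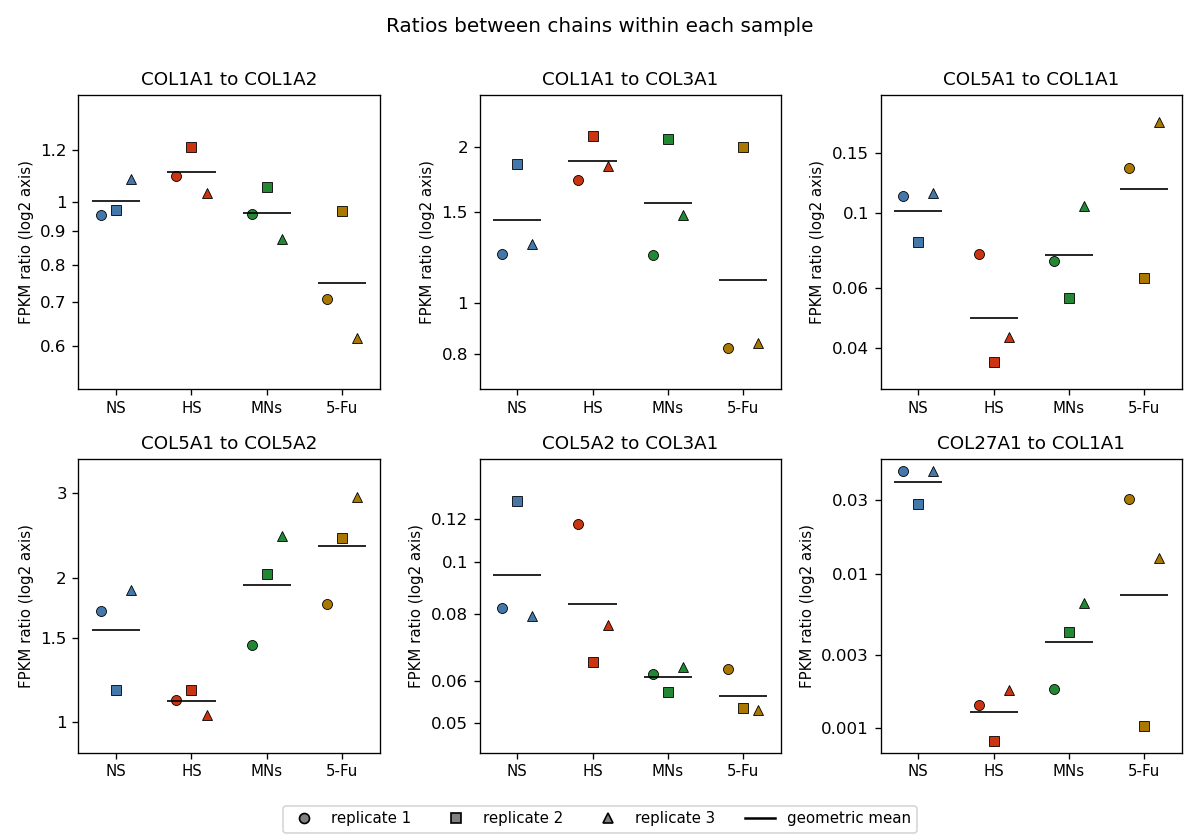
FPKM ratio of 6 pairs of chains (log2 axes) in each sample of NS, HS, drug-loaded MNs (MNs) and 5-Fu injection (5-Fu), with a bar at the geometric mean. COL5A1 to COL5A2 is 1.04 to 1.17 in HS and 1.45 or more in all treated samples, and COL1A1 to COL1A2 is below 1 in all 5-Fu injection samples.

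Across the 12 samples, log2(FPKM + 1) of COL1A1 correlated with COL1A2 (Pearson r = 0.991), COL3A1 (0.972), COL5A2 (0.967) and COL5A3 (0.899). The r of COL1A1 with COL11A1 was 0.55 and that with COL27A1 was -0.41. These 12 points share the 4 groups, so they describe how the groups were ordered. The 5 other genes most like COL1A1 by this measure were SRPX (0.989), COL16A1 (0.988), ADAMTS2 (0.985), MFAP4 (0.984) and CACNA1G (0.979). Those most like COL11A1 included HYAL1 (0.913), DCLRE1A (0.912), EHBP1 (0.882) and ARMH4 (0.873).

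Genes that act on fibrillar collagen, and other collagens that need not act on it, were taken from 6 lists. Of 55 tested in all, 18 of them from the list of other collagens, 21 were called higher in HS than in NS and 1 lower. Of all genes, 3.53% and 1.48% were. After 5-Fu injection 12 of the 55 were called lower than in HS, against 1.78% of all genes. That count was 0 without HS replicate 2 or 3 and when only HS and 5-Fu injection were fitted, where 0 of all genes were called lower. It was 1 without HS replicate 1, where 8 of all genes were. It was 3 and 2 without 5-Fu injection replicates 1 and 3, where 8 and 6 of all genes were. Without 5-Fu injection replicate 2 the count was 20, where 500 of all genes were called lower, against 236 with all samples. It was 6 without NS replicate 1 or drug-loaded MNs replicate 2, and 5 without a filter or with the replicate block. Over all genes the calls in these 4 settings were 130, 137, 74 and 76. Of 10 listed genes for procollagen processing, 6 were tested, with a median log2 fold change of 1.06 in HS against NS, where that of all genes was -0.01. Of these 6, 3 were called higher in HS and 0 lower. They were ADAMTS2, which removes the amino-terminal propeptide, BMP1, which removes the carboxy-terminal one, and PCOLCE, which enhances BMP1. PCOLCE averaged 83.2 ± 23.0 FPKM in NS and 550 ± 29.5 in HS (SD, n = 3), and ADAMTS2 14.2 ± 2.58 and 88.0 ± 6.37. ADAMTS2 was also called lower after 5-Fu injection, with a log2 fold change of -1.49 against HS (limma adjusted p = 0.0387). PCOLCE2 was at 223 ± 70.9 FPKM in NS and 70.7 ± 25.8 in HS, with an adjusted p of 0.0595 in limma.

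Of 14 listed regulators of fibril assembly, 12 were tested, with a median log2 fold change of 1.82 in HS against NS. Of these, 7 were called higher in HS (ASPN, BGN, DCN, LUM, POSTN, THBS2 and TNC), 0 lower, and 4 were called lower after 5-Fu injection (ASPN, BGN, LUM and THBS2). LUM, a proteoglycan that binds fibrils, averaged 150 ± 38.4 FPKM in NS, 3331 ± 597 in HS, 1767 ± 429 with drug-loaded MNs and 1025 ± 947 with 5-Fu injection. Its log2 fold change HS against NS of 4.48 (SE 0.53, limma adjusted p = 0.00134) was close to that of COL1A1. ASPN, a related proteoglycan, averaged 12.5 ± 1.90 FPKM in NS, 195 ± 15.9 in HS, 124 ± 39.3 with drug-loaded MNs and 34.4 ± 20.6 with 5-Fu injection. THBS2 and TNC, matricellular proteins, differed from NS by 4.42 and 3.39 on the log2 scale in HS (limma adjusted p = 0.00139 and 0.0184). The call of TNC in HS was lost without any 1 HS replicate or NS replicate 1, and that of POSTN without HS replicate 2 or 3 or NS replicate 1 or 2.

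Of 10 listed fibril-associated collagens, 6 were tested, with a median log2 fold change of 1.52 in HS against NS. Of these, COL12A1 and COL16A1 were called higher in HS and lower after 5-Fu injection. COL12A1, which coats type I fibrils, averaged 32.9 ± 4.24 FPKM in NS, 198 ± 36.9 in HS, 100 ± 18.0 with drug-loaded MNs and 49.4 ± 17.4 with 5-Fu injection. COL14A1, with a similar place on fibrils, was at 21.9 ± 6.43 in NS and 111 ± 69.3 in HS and did not pass (limma adjusted p = 0.0590). Of 23 other collagens listed, 18 were tested, with a median of 0.93. Of these, 4 were called higher in HS (COL6A2, COL6A3, COL8A1 and COL8A2) and 1, COL17A1 of the basal epidermal cells, lower. The call of COL17A1 was lost without any 1 HS replicate, without NS replicate 1 or 3 and without a filter. COL6A3, COL8A1 and COL8A2 were called lower after 5-Fu injection. COL10A1, the collagen of hypertrophic cartilage, was at 2500 ± 1084 FPKM in NS and 383 ± 420 in HS and did not pass (limma adjusted p = 0.140).

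Of 9 listed collagen receptors, 7 were tested, with a median log2 fold change of 0.22 in HS against NS, and 1 was called higher in HS, ITGA11, the collagen-binding integrin subunit of fibroblasts. It averaged 2.75 ± 0.594 FPKM in NS, 46.9 ± 10.4 in HS, 30.9 ± 7.75 with drug-loaded MNs and 13.2 ± 8.35 with 5-Fu injection, where it was called lower than in HS (limma adjusted p = 0.0267). Of 8 listed enzymes that cut collagen or its fragments, 6 were tested, with a median of 1.48, and 4 were called higher in HS (MMP2, MMP13, CTSK and FAP). MMP13, a collagenase, was at 1.00 ± 0.424 FPKM in NS and 32.7 ± 12.5 in HS, and MMP2, a gelatinase, at 117 ± 27.2 and 1071 ± 49.2. MMP2 was called lower after 5-Fu injection (log2 fold change -1.58, limma adjusted p = 0.0280), and MMP13, CTSK and FAP did not pass there. In HS against NS the call of MMP13 was lost without HS replicate 1 and with voom on the reads, that of CTSK without HS replicate 2 or NS replicate 1, and that of FAP without HS replicate 2 or 3. After drug-loaded MNs, 0 of the 55 genes of these lists were called against HS. Of all 13287 genes, 1 was called higher and 0 lower in that comparison. COL8A2 was called lower when only HS and drug-loaded MNs were fitted.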

How the data were processed

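Gene expression was measured by bulk RNA-seq in 12 samples, whose labels gave the groups. Deposited by the authors was a single table of FPKM, normalized to gene length and library size. The aligner, counting tool and genome build are not given in the sources used here, and coordinates are those of the table. Multiplied by gene length, the values were whole multiples of 1 step per sample (tolerance 0.02), from which reads were counted back. In limma 3.58.1 (R 4.3.3), log2(FPKM + 1) was fitted for the 4 groups with a mean-variance trend, and p-values were adjusted by Benjamini-Hochberg over the 13287 genes with a mean of at least 1 FPKM. Ratios used FPKM + 0.1 and two-sided exact permutation tests over 15400 partitions. Intervals and standard errors are those of the fit, with fold changes given as differences of log2(FPKM + 1). Both procedures were tested on simulated data.

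The members and lists were chosen with earlier results of these data known. All chains are named. Of other lists, the 4 genes with the largest change in HS against NS are named where a result turns on them, with genes called in only 1 treatment, and a called gene named beyond these was chosen after its values were seen. The 5 genes most like COL1A1 or COL11A1 were taken by Pearson correlation, and 1 of them is not reported here. Genes without a symbol were matched by protein name. The replicate numbers mark different rabbits in each group. Alternatives covered pseudocounts, filters, scaling, the groups fitted, voom, a replicate block and each replicate left out.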

Additional observations from a re-analysis of the deposited data

How the results depend on the processing

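Of the members called, the 5 in HS against NS were 4 to 6 under every alternative, 6 with COL24A1 when no filter was applied. Over all genes, 325 to 508 were called higher, against 469 in the main fit. The count of 3 in 5-Fu injection against HS was 1 without a filter, 1 with the replicate block and 0 when only the groups compared were fitted. Of all genes, 74, 76 and 0 were called lower in these fits, against 236 in the main fit. As replicates were left out the member count ranged from 0 to 5, and that of all genes from 0 to 500. The member count was 5 with FPKM rescaled to TPM or scaled without collagen genes, where 503 and 650 of all genes were called lower. These scalings moved the median of all genes by -0.18 and -0.24 in that comparison. The shifts were -0.27 and -0.24 in 5-Fu injection against NS and 0.17 and 0.19 in drug-loaded MNs against 5-Fu injection. The count of 4 in drug-loaded MNs against NS was 2 without a filter and 1 with the replicate block, where 49 and 22 of all genes were called higher. It ranged from 0 to 5 as replicates were left out, and that of all genes from 0 to 155. The count of 0 in drug-loaded MNs against 5-Fu injection ranged from 0 to 2, and that of all genes called higher from 0 to 10. The cause was not tested, beyond fewer samples or more genes entering the fit.

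By design the replicate numbers mark different rabbits in each group and do not pair animals. Correlated deviations from means of 3 samples cannot exclude a link between equal numbers. In no comparison did every pair of equal numbers have deviations correlated over 0.1. All 6 samples correlated best with their own number in 5-Fu injection against NS, and 0 to 3 of 6 did in the other comparisons. The replicate block left the count of 5 in HS against NS and the counts of 0 in the other 3 comparisons as they were.

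As replicates were left out, the mean log2 ratio in HS minus that in NS ranged from 0.086 to 0.21 for COL1A1 to COL1A2, 0.28 to 0.56 for COL1A1 to COL3A1, -1.37 to -0.83 for COL5A1 to COL1A1 and -5.17 to -4.64 for COL27A1 to COL1A1, and these 4 passed without 5-Fu injection replicate 2. The COL27A1 to COL1A1 ratio had an adjusted exact p of 0.00325 there. That replicate was picked from the values of these chains, so these passes are a description and not a test. For COL5A2 to COL3A1 the difference ranged from -0.43 to 0.049, with a reversed sign without NS replicate 2 (0.049) and without HS replicate 2 (0.00052).

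Fold changes whose sign was reversed when a replicate was left out were all far from a call. That of COL27A1 ranged from -0.55 to 0.28 in 5-Fu injection against HS (0.28 without 5-Fu injection replicate 2, 0.08 without HS replicate 3) and from -0.45 to 0.25 in drug-loaded MNs against NS (0.25 without drug-loaded MNs replicate 1, 0.06 without NS replicate 1). That of COL5A3 ranged from -0.17 (without 5-Fu injection replicate 1) to 1.24 in drug-loaded MNs against 5-Fu injection. That of COL11A1 ranged from -0.61 to 0.17 in 5-Fu injection against NS (0.10 without 5-Fu injection replicate 3, 0.17 without NS replicate 1). Depth limits only COL24A1, whose NS samples held 5 to 17 reads.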
